A study of Mus musculus with 10 samples.

Results

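The genes described here make cholesterol, control its synthesis through SREBP, and carry or export sterols. They are 32 genes listed by symbol, of the 48709 genes in the count tables. All 32 matched an identifier in the GENCODE M21 annotation and all passed the filter on low counts. By step they are 8 genes of the mevalonate segment, 3 of the squalene segment, 9 acting after lanosterol, 5 SREBP regulators and 7 of sterol transport and export. Acat2, which joins acetyl units before the mevalonate segment, was placed with that segment.

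Polyadenylated RNA was sequenced from primary mouse hippocampal neurons, cells of the dissociated hippocampus kept as a culture, here on day 10 in vitro. There were 6 libraries from cultures given tunicamycin at 2 ug/mL for 6 h and 4 libraries from cultures given the solvent DMSO for the same 6 h. Tunicamycin stops the first step of N-linked glycosylation and so stresses protein folding in the endoplasmic reticulum (ER). The comparison asks which transcripts change under this ER stress. The labels give no strain, sex or genotype, and do not state whether each library had its own culture or animal. The p-values therefore cover only variation among these libraries, which may be technical. Library totals were 2.11e+07 to 2.92e+07 counts, and the lowest mean count of any of the 32 genes in a group was 74.8. The labelled neurons were visible in the markers: the microtubule protein gene Map2 averaged 2068 ± 76.9 CPM (counts per 1e+06 counts of the library; SD, n = 6) with tunicamycin and 2355 ± 214 CPM (SD, n = 4) with DMSO. Astrocyte markers were also present, and the glutamate transporter gene Slc1a2 averaged 961 ± 50.9 CPM with tunicamycin and 1244 ± 122 CPM with DMSO. Counts came from whole cultures, so fewer cells of a type and less RNA per cell cannot be told apart.

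Cholesterol is built from acetyl units through mevalonate, isoprenoid phosphates, squalene and lanosterol. The SREBP transcription factors that drive most of these enzymes are held in the ER membrane as precursors. Scap escorts them to the Golgi, where proteases release the active part, and the Insig proteins hold Scap back in the ER when sterols are plentiful. In the brain cholesterol is made locally, largely by astrocytes and to a lesser degree by neurons, and neurons dispose of it by hydroxylation through Cyp46a1.

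The segments before the annotated starts of 6 genes are shown because these genes cover the directions found: Hmgcs1, Srebf2 and Insig1 fell with tunicamycin, Ggps1 and Lss rose, and Cyp51 did not pass the test. Each is the 250 bases before the RefSeq start on GRCm38.p6, of which mm10 is another name, written 5′ to 3′ on the strand of the gene. Capitals mark TCACNCCA, the core of a classical sterol regulatory element (extended to TCACNCCAC where the last letter also matched), and CCAAT, the box bound by NF-Y, each on either strand.
Hmgcs1 (chr13:119690101-119690350, plus strand): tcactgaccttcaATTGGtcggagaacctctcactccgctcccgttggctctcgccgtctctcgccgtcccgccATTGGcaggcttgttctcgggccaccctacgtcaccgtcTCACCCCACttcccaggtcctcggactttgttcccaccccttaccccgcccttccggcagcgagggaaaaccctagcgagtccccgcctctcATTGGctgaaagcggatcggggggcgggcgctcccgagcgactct
Srebf2 (chr15:82147019-82147268, plus strand): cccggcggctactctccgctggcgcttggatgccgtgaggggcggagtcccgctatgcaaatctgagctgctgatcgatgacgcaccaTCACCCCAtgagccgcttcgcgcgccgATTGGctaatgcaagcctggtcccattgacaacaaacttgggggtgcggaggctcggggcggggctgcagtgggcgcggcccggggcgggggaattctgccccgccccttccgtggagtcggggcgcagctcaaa
Insig1 (chr5:28071162-28071411, plus strand): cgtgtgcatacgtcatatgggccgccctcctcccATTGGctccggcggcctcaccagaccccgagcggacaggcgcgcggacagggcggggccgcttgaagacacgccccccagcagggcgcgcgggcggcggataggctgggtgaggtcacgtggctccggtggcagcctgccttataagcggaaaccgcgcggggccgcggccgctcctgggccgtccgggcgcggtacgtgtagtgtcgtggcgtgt
Cyp51 (chr5:4104698-4104947, minus strand): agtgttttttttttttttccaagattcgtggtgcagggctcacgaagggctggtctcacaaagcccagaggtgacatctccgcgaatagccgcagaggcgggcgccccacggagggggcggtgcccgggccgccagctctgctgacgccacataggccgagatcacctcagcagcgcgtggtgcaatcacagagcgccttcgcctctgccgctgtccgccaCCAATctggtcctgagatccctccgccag
Ggps1 (chr13:14063489-14063738, minus strand): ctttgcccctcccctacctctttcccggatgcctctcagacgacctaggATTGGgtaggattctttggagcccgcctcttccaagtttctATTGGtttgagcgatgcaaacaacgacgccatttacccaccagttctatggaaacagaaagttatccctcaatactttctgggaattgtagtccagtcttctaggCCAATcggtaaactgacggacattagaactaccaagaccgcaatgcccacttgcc
Lss (chr10:76531355-76531604, plus strand): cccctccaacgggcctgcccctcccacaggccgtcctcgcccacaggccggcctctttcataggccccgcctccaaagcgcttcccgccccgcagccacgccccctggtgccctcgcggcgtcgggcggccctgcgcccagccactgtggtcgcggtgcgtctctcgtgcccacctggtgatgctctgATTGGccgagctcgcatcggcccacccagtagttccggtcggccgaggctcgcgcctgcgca

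Fdft1, Fdps, Sqle, Abcg1, Npc1 and Stard4 had no promoter entry and were not searched, so the shares below do not cover them. Among the 26 genes with a promoter entry, which have 34 annotated starts, TCACNCCAC was found before 1 start (2.94%). It was found before 1.05% of all 32851 starts in the RefSeq table and before 1.01% of the 14723 starts of genes tested here. The match was in Hmgcs1, beginning 137 bases before the start. The shorter TCACNCCA, searched after the longer form had been seen, was found in Hmgcs1, Msmo1 and Srebf2, before 8.82% of the starts of these genes, 3.67% of all starts and 3.38% of the starts of tested genes. In Srebf2 it began 162 bases before the start. The CCAAT box stood before 70.6% of the starts of the sterol genes, against 33.8% of all starts and 34.8% of the starts of tested genes. It was present in genes that fell (Hmgcs1, Insig1), in genes that rose (Ggps1, Lss) and in Cyp51. The GC box GGGCGG was found before 76.5% of the starts of the sterol genes, 32.7% of all starts and 56% of the starts of tested genes, and the E-box CACGTG before 17.6%, 6.02% and 7.93%. TGATGNAA, a core of elements bound by ATF4 with a C/EBP partner, was found in Idi1 and Insig2, before 8.82% of the starts of the sterol genes, 3.45% of all starts and 2% of the starts of tested genes. The ER stress element, CCAAT and CCACG with 9 bases between them, and the LXR element, AGGTCA repeated after 4 bases, were found before 0 of the 34 starts. They stood before 0.113% and 0.0152% of all starts, and before 0.122% and 0% of the starts of tested genes. Both exact patterns are so rare that 0 of 34 starts cannot show whether the sterol genes differ from other genes. These letters were sought on both strands of this window and nowhere else.

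With tunicamycin, 22 of the 32 genes fell, 5 rose and 5 did not pass the test (edgeR quasi-likelihood test, Benjamini-Hochberg adjusted p under 0.05 over 15660 genes). Over all genes tested 64.3% passed, 32.5% lower and 31.8% higher. The median log2 fold change of the 32 genes was -0.31, beside -0.02 over all genes tested. A log2 fold change of -1 or less was found for 4 of the 32 (Idi1, Srebf1, Stard4 and Acat2), and for 2.13% of all genes. The tunicamycin and DMSO libraries had no overlap for 25 of the 32 genes, 21 lower and 4 higher, beside 50.9% of all genes (23.9% lower and 27% higher). Upper-quartile scaling in place of TMM moved the median of all genes by -0.11. Under it 27 of the 32 genes were lower and 3 higher, and over all genes 6934 were lower and 3632 higher, against 5082 lower and 4983 higher with TMM.

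**Figure D1:**
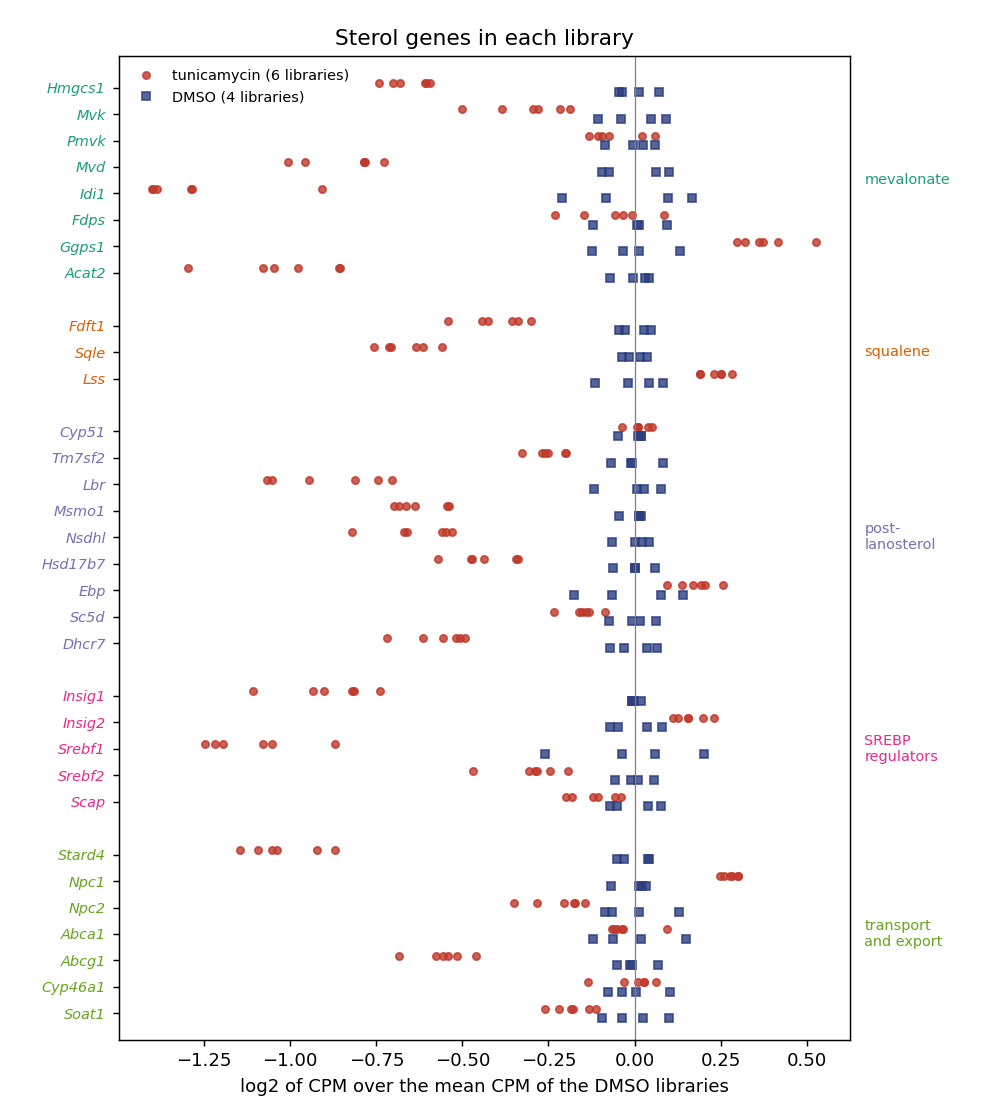
Level of each of the 32 genes in each library, as log2 of its CPM over the mean CPM of the 4 DMSO libraries; circles are the 6 tunicamycin libraries, squares the 4 DMSO libraries, and gene names are coloured by step. The tunicamycin libraries lie left of all DMSO libraries for 21 genes and right of them for 4 (Ggps1, Lss, Insig2 and Npc1).

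The mevalonate segment turns acetyl units into isoprenoid phosphates. Of its 8 genes 5 fell (Hmgcs1, Mvk, Mvd, Idi1 and Acat2), Ggps1 rose, and Pmvk and Fdps did not pass. Hmgcs1, which encodes the HMG-CoA synthase of the cytosol (ENSMUSG00000093930, chromosome 13), had 952 CPM in its lowest, 1019 CPM in its median and 1056 CPM in its highest tunicamycin library, against 1543, 1552, 1606 and 1672 CPM in the DMSO libraries. The highest tunicamycin library was thus well under the lowest DMSO library. It was 1.58-fold lower with tunicamycin, -0.66 ± 0.04 on the log2 scale (log2 fold change ± SE, edgeR adjusted p = 5.02e-13).

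Acat2, the cytosolic acetoacetyl-CoA thiolase, had a lowest, median and highest value of 51.3, 62.4 and 69.6 CPM with tunicamycin, against 130, 120, 129 and 125 CPM with DMSO. The groups did not overlap. Its log2 fold change was -1.02 ± 0.07 (edgeR adjusted p = 1.08e-07). Mvd, which decarboxylates the last mevalonate intermediate, had 50.8, 59.2 and 61.6 CPM (lowest, median, highest) with tunicamycin, against 109, 96.9, 107 and 95.5 CPM with DMSO. It was 1.80-fold lower (log2 fold change -0.84 ± 0.05, edgeR adjusted p = 1.33e-10).

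Idi1, the isomerase that makes the reactive isoprenoid unit, was counted at a low level of 2.68, 2.80 and 3.77 CPM (lowest, median, highest) with tunicamycin, against 6.68, 7.95, 7.57 and 6.12 CPM with DMSO. All tunicamycin libraries were lower than all DMSO libraries, and -1.27 ± 0.11 on the log2 scale (edgeR adjusted p = 7.65e-10) was the most negative value of the 32 genes. Mvk, mevalonate kinase, fell less, by 0.31 ± 0.05 on the log2 scale, with 43.8 to 54.5 CPM with tunicamycin and 57.6 to 66.01 CPM with DMSO. Its partner kinase Pmvk, next in the chain, averaged 82.3 ± 4.45 CPM with tunicamycin and 85.4 ± 3.65 CPM with DMSO, and its groups overlapped (log2 fold change -0.06, 95% interval -0.15 to 0.03, edgeR adjusted p = 0.214). Under upper-quartile scaling Pmvk passed, at -0.17.

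At the branch point the pathway leaves for squalene, dolichol, ubiquinone and protein prenylation. Fdps, farnesyl diphosphate synthase, averaged 11.9 ± 0.907 CPM with tunicamycin and 12.5 ± 0.751 CPM with DMSO (log2 fold change -0.06, 95% interval -0.21 to 0.08, edgeR adjusted p = 0.427), and under upper-quartile scaling it passed, at -0.18. Ggps1, which makes the geranylgeranyl unit used to anchor small GTPases to membranes, went the other way. It had 36.5, 38.3 and 42.8 CPM (lowest, median, highest) with tunicamycin, against 32.5, 29.0, 27.3 and 30.0 CPM with DMSO. Its groups did not overlap, and the rise of 0.38 ± 0.05 on the log2 scale (edgeR adjusted p = 1.45e-06) was the largest rise of the 32 genes.

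In the squalene segment Fdft1 and Sqle fell and Lss rose. Sqle, squalene epoxidase, which commits squalene to the sterol branch, had 237, 251 and 271 CPM (lowest, median, highest) with tunicamycin, against 404, 395, 410 and 390 CPM with DMSO. It was 1.59-fold lower, or -0.67 ± 0.04 on the log2 scale (edgeR adjusted p = 3.45e-13). Fdft1, squalene synthase, averaged 152 ± 9.05 CPM with tunicamycin and 200 ± 6.06 CPM with DMSO (log2 fold change -0.41 ± 0.04, edgeR adjusted p = 1.12e-08). Lss, lanosterol synthase, closes the ring directly after Sqle. It had 141, 146 and 150 CPM (lowest, median, highest) with tunicamycin, against 114, 127, 131 and 122 CPM with DMSO, so that all tunicamycin libraries were higher than all DMSO libraries. The rise of 0.22 ± 0.04 on the log2 scale (edgeR adjusted p = 2.24e-05) became 0.11 under upper-quartile scaling and still passed there.

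Of the 9 genes acting after lanosterol, 7 fell, Ebp rose and Cyp51 did not pass. Cyp51, the demethylase that acts on lanosterol itself, had 335, 346 and 355 CPM (lowest, median, highest) with tunicamycin, against 347, 332, 348 and 346 CPM with DMSO. The groups lay on top of each other, and the 95% interval of the log2 fold change ran from -0.06 to 0.07 (estimate 0.0053, edgeR adjusted p = 0.889). With upper-quartile scaling the estimate was -0.11 and passed the test.

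The enzymes that take further methyl groups off the sterol after Cyp51 all fell. Msmo1, the methyl oxidase, had 155, 161 and 174 CPM (lowest, median, highest) with tunicamycin, against 254, 244, 255 and 256 CPM with DMSO (log2 fold change -0.63 ± 0.04, edgeR adjusted p = 1.18e-12). Nsdhl, the dehydrogenase of that step, was 1.55-fold lower, at 111 ± 8.19 CPM with tunicamycin and 171 ± 5.45 CPM with DMSO. Hsd17b7, the ketoreductase, was 1.36-fold lower, at 59.4 ± 3.61 CPM with tunicamycin and 80.5 ± 2.77 CPM with DMSO. None of the 3 genes had an overlap between the groups.

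Lbr and Tm7sf2 encode enzymes with the same sterol reductase activity. Lbr, which is also a receptor of the inner nuclear membrane, had 5.72, 6.53 and 7.35 CPM (lowest, median, highest) with tunicamycin, against 12.2, 12.6, 12.04 and 11.1 CPM with DMSO (log2 fold change -0.89 ± 0.08, edgeR adjusted p = 1.92e-09). Tm7sf2 fell by 0.26 ± 0.04 on the log2 scale, with 45.5 ± 1.49 CPM with tunicamycin and 54.1 ± 2.32 CPM with DMSO. Of the late steps, Dhcr7, the reductase that acts on the direct precursor of cholesterol, had 79.5, 90.1 and 93.0 CPM (lowest, median, highest) with tunicamycin, against 134, 125, 137 and 128 CPM with DMSO. Its log2 fold change was -0.57 ± 0.04 (edgeR adjusted p = 5.90e-11). The desaturase gene Sc5d, acting just before it, fell by 0.16 ± 0.04. Ebp, the isomerase before Sc5d, rose by 0.17 ± 0.06 (edgeR adjusted p = 0.0132), with 22.2 to 24.9 CPM with tunicamycin and 18.5 to 23.0 CPM with DMSO, so that its groups overlapped. The rise of Ebp was no longer called without DMSO replicate 2 (adjusted p = 0.0546), without DMSO replicate 4 (0.0629) or under upper-quartile scaling (0.41).

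Among the regulators of SREBP, Insig1, Srebf1, Srebf2 and Scap fell and Insig2 rose. Srebf1, which encodes the SREBP form known mainly for fatty acid synthesis (ENSMUSG00000020538, chromosome 11), had 31.6, 34.1 and 41.0 CPM (lowest, median, highest) with tunicamycin, against 86.1, 78.01, 73.0 and 62.5 CPM with DMSO. The DMSO libraries were spread widely (coefficient of variation 13.2%) but all lay above the tunicamycin libraries, and the log2 fold change was -1.11 ± 0.09 (edgeR adjusted p = 8.52e-07). Srebf2, which encodes the form known mainly for cholesterol synthesis, fell less. It had 259, 294 and 314 CPM (lowest, median, highest) with tunicamycin, against 356, 361, 373 and 345 CPM with DMSO (log2 fold change -0.30 ± 0.04, edgeR adjusted p = 1.42e-06). Per kilobase of exon, the level of Srebf1 was 0.152 ± 0.0155 of that of Srebf2 with tunicamycin (SD, n = 6) and 0.266 ± 0.0337 with DMSO (SD, n = 4). Counts per gene do not separate the isoforms of Srebf1.

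Insig1, itself a known SREBP target, had 59.6, 70.8 and 77.0 CPM (lowest, median, highest) with tunicamycin, against 128, 128, 128 and 130 CPM with DMSO. The DMSO libraries were nearly equal, and the level was 1.85-fold lower with tunicamycin (log2 fold change -0.89 ± 0.05, edgeR adjusted p = 4.08e-11). Insig2, its paralog, had 36.3, 37.4 and 39.3 CPM (lowest, median, highest) with tunicamycin, against 34.4, 31.9, 35.4 and 32.4 CPM with DMSO. It rose by 0.16 ± 0.04 on the log2 scale (edgeR adjusted p = 0.00283) without overlap between the groups, and under upper-quartile scaling the value was 0.042 and did not pass. The ratio of Insig1 to Insig2 per kilobase of exon was 1.79 to 2.31 in the tunicamycin libraries and 4.05 to 4.51 in the DMSO libraries. Scap fell slightly, by 0.12 ± 0.04 (edgeR adjusted p = 0.00782), and its groups overlapped, with 78.2 to 87.3 CPM with tunicamycin and 85.4 to 94.6 CPM with DMSO.

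**Figure D2:**
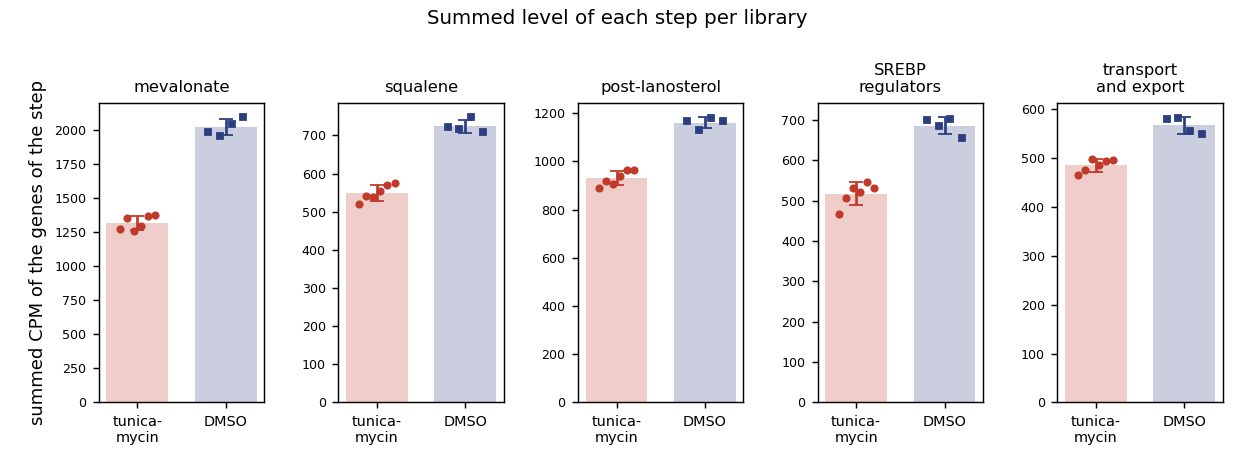
Summed CPM of the genes of each step in each library; bars are group means with SD, circles the 6 tunicamycin libraries and squares the 4 DMSO libraries, on axes that start at 0. The mevalonate sum was 1256 to 1372 CPM with tunicamycin and 1955 to 2091 CPM with DMSO. Most of it was Hmgcs1, which averaged 1012 CPM with tunicamycin and 1593 CPM with DMSO. The transport and export sum was 464 to 497 CPM with tunicamycin and 549 to 582 CPM with DMSO.

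Of the 7 genes of sterol transport and export, Stard4, Npc2, Abcg1 and Soat1 fell, Npc1 rose, and Abca1 and Cyp46a1 did not pass. Stard4, a cytosolic carrier that moves cholesterol between membranes and is a known SREBP target, had 55.3, 59.2 and 66.9 CPM (lowest, median, highest) with tunicamycin, against 118, 126, 120 and 126 CPM with DMSO. This was 2.03-fold lower (log2 fold change -1.02 ± 0.05, edgeR adjusted p = 1.48e-13), the smallest adjusted p of the 32 genes. Soat1, which esterifies cholesterol for storage, fell by 0.19 ± 0.04, with 35.0 to 38.8 CPM with tunicamycin and 39.3 to 44.9 CPM with DMSO.

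Npc1 and Npc2 act together in the export of cholesterol from the lysosome, and their transcripts moved in opposite directions. Npc1, the membrane protein, had 53.5, 54.8 and 55.6 CPM (lowest, median, highest) with tunicamycin, against 43.0, 45.8, 46.1 and 45.5 CPM with DMSO. It rose without overlap between the groups (log2 fold change 0.27 ± 0.04, edgeR adjusted p = 1.02e-06) and stayed called under upper-quartile scaling, at 0.15. Npc2, the soluble partner, had 79.6, 88.8 and 91.7 CPM (lowest, median, highest) with tunicamycin, against 111, 96.9, 102 and 95.4 CPM with DMSO (log2 fold change -0.23 ± 0.04, edgeR adjusted p = 9.23e-05).

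The lipid exporters Abca1 and Abcg1 are both known LXR targets. Abcg1 had 13.7, 15.04 and 16.0 CPM (lowest, median, highest) with tunicamycin, against 23.1, 21.2, 21.8 and 21.9 CPM with DMSO (log2 fold change -0.56 ± 0.05, edgeR adjusted p = 6.06e-09). Abca1 had 120, 122 and 134 CPM with tunicamycin, against 127, 139, 120 and 116 CPM with DMSO, and the groups overlapped (log2 fold change -0.03, 95% interval -0.12 to 0.06, edgeR adjusted p = 0.51). Cyp46a1, the neuronal hydroxylase through which cholesterol leaves the brain, had 98.5, 109 and 113 CPM (lowest, median, highest) with tunicamycin, against 116, 109, 106 and 103 CPM with DMSO. Its 95% interval ran from -0.09 to 0.07 (log2 fold change -0.014, edgeR adjusted p = 0.778). Under upper-quartile scaling Abca1 and Cyp46a1 both passed, at -0.15 and -0.13.

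Levels were compared between genes as RPKM, here CPM per kilobase of the joined exons of a gene. Hmgcs1 was the highest of the 32 genes in both groups, at 220 ± 9.41 RPKM with tunicamycin and 347 ± 12.9 RPKM with DMSO. With tunicamycin Cyp51 followed at 78.5 ± 1.62 RPKM, ahead of Pmvk (48.1 ± 2.60 RPKM), Sqle (45.5 ± 2.32 RPKM), Srebf2 (40.7 ± 2.54 RPKM) and Nsdhl (38.9 ± 2.87 RPKM). In DMSO cultures Cyp51 (77.8 ± 1.73 RPKM) was ahead of Sqle (72.1 ± 1.63 RPKM), followed by Nsdhl (60.1 ± 1.91 RPKM) and Mvd (54.9 ± 3.70 RPKM). The values of Pmvk and Sqle with tunicamycin lay within about an SD of each other. At the low end, Idi1 had 0.839 ± 0.120 RPKM with tunicamycin and 2.02 ± 0.237 RPKM with DMSO. Among the transport and export genes Cyp46a1 was the highest in both groups, at 32.8 ± 1.54 RPKM with tunicamycin and 32.9 ± 1.77 RPKM with DMSO.

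**Figure D3:**
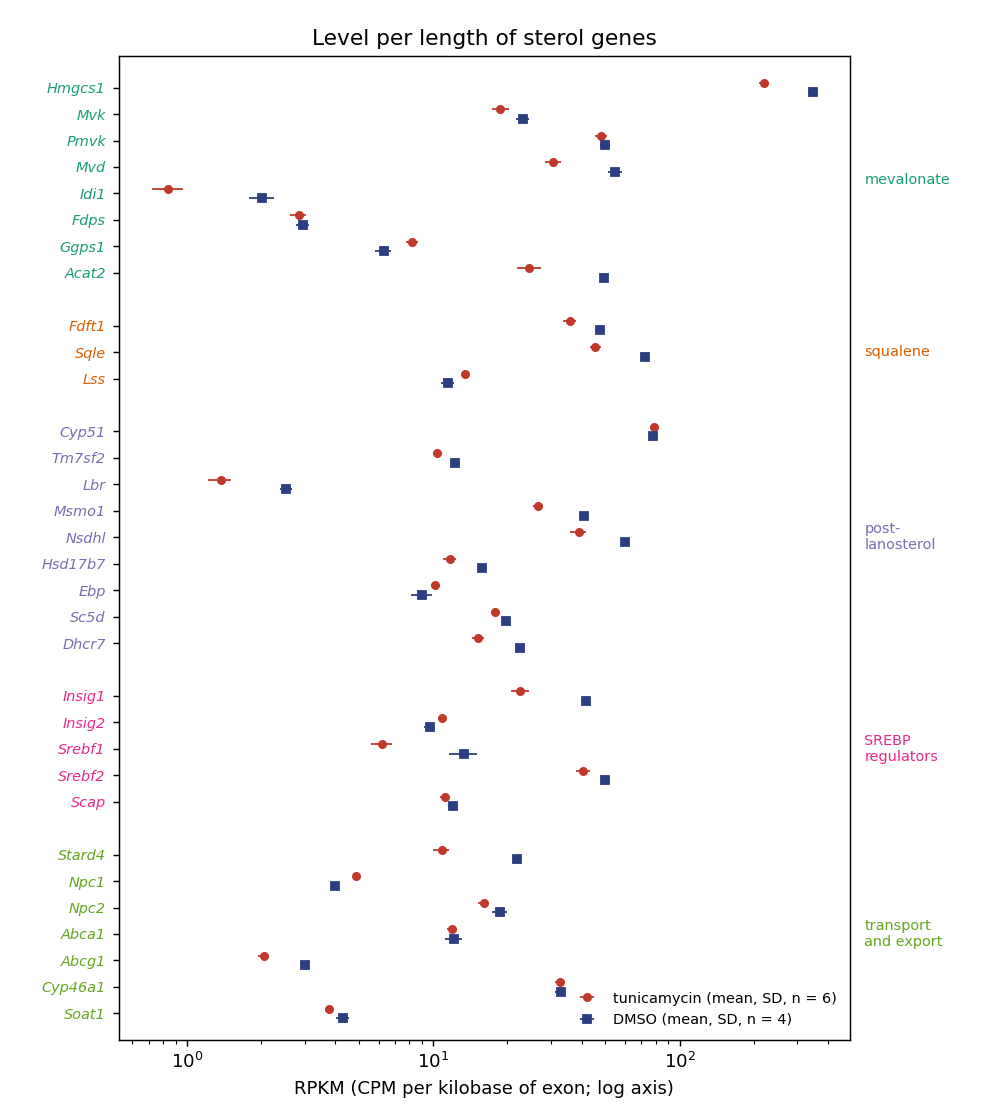
Level per length of the 32 genes in RPKM on a log axis; circles are tunicamycin means and squares DMSO means, with SD bars (n = 6 and n = 4). Hmgcs1 lies highest in both groups and Idi1 lowest, and Cyp51 has almost the same level in both groups.

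Reads of 8 of these genes can be shared with another gene. At least 10% of their exonic bases lie in another gene, or at least 10% of their 50-base words occur in its transcripts. These shares do not give the share of reads affected, so the levels and calls of the 8 genes are uncertain to an unknown degree. The kit does not mark strand, so overlap with a gene on the opposite strand counts. The percentages that follow are totals over all other genes, and the gene named has the largest part. In Acat2 39.1% of the words are shared. The largest part is with its near copy Acat3, which itself had 0.476 ± 0.219 CPM with tunicamycin and 0.807 ± 0.231 CPM with DMSO. Of Idi1 25.3% of the words are shared. The largest part is with the processed pseudogene Gm13502, which had 0.00657 ± 0.0161 CPM with tunicamycin and 0 CPM with DMSO. Fdps overlaps other genes in 26.7% of its exonic bases, the largest part with the annotated gene Gm43738 on its own strand. Gm43738 had 0 CPM with tunicamycin and 0.0115 ± 0.0231 CPM with DMSO. Whether reads of Idi1 and Fdps were left out of their counts was not tested. The exons of Fdft1 overlap other genes in 18.3% of their bases (26.5% of words). The largest part is with Ctsb, the cathepsin B gene, on the opposite strand. Ctsb fell too, with 334 ± 15.1 CPM with tunicamycin and 398 ± 13.4 CPM with DMSO (log2 fold change -0.26). The others are Hmgcs1 (12.1% of exonic bases, the largest part with an antisense gene not used here), Scap (13.2%), Tm7sf2 (12.1%) and Lbr (10.7%). Among the other 24 genes 15 fell, 5 rose and 4 did not pass, beside 32.5% lower and 31.8% higher over all genes tested. The deposited files do not show how such reads were assigned.

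The 6 tunicamycin libraries differed in the levels of the genes that fell, and whether their response differed was not tested. Tunicamycin replicate 1 held the lowest value of its group in 15 of the 22 genes that fell, and replicates 5 and 6 held the highest in 10 and 7. In the DMSO group replicates 2 and 4 each held the lowest value in 8 of the 22. Over genes in general, tunicamycin replicate 1 stood at a chi-square per degree of freedom of 3.26 to 6.87 from the others of its group. Among those others the values were 2.07 to 3.36. DMSO replicate 1 stood further out, at 5.15 to 9.64 from the others of its group, beside 3.05 to 3.85 among those. The median log2 distance of these 22 genes from the DMSO mean was -0.69 in tunicamycin replicate 1, -0.60 in replicate 2, -0.67 in replicate 3, -0.54 in replicate 4, -0.51 in replicate 5 and -0.53 in replicate 6. Without tunicamycin replicate 1 the same numbers of genes were called, 22 lower and 5 higher, and the median over the 32 genes was -0.27. Replicates 5 and 6 were run on sequencing lane 3, as the names of the deposited files record. Within lane 1 (2 tunicamycin and 2 DMSO libraries) the median log2 fold change of the 22 genes was -0.62, within lane 2 (2 and 1) it was -0.64, and within lane 3 (2 and 1) it was -0.53. Lane 3 gave the smallest fall in 19 of the 22 genes. All 27 called genes had in each lane the direction found over all libraries. They were called from these same libraries, so the lanes are no separate test of direction. With lane as a term of the edgeR fit 22 of the 32 genes were lower and 5 higher.

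**Figure D4:**
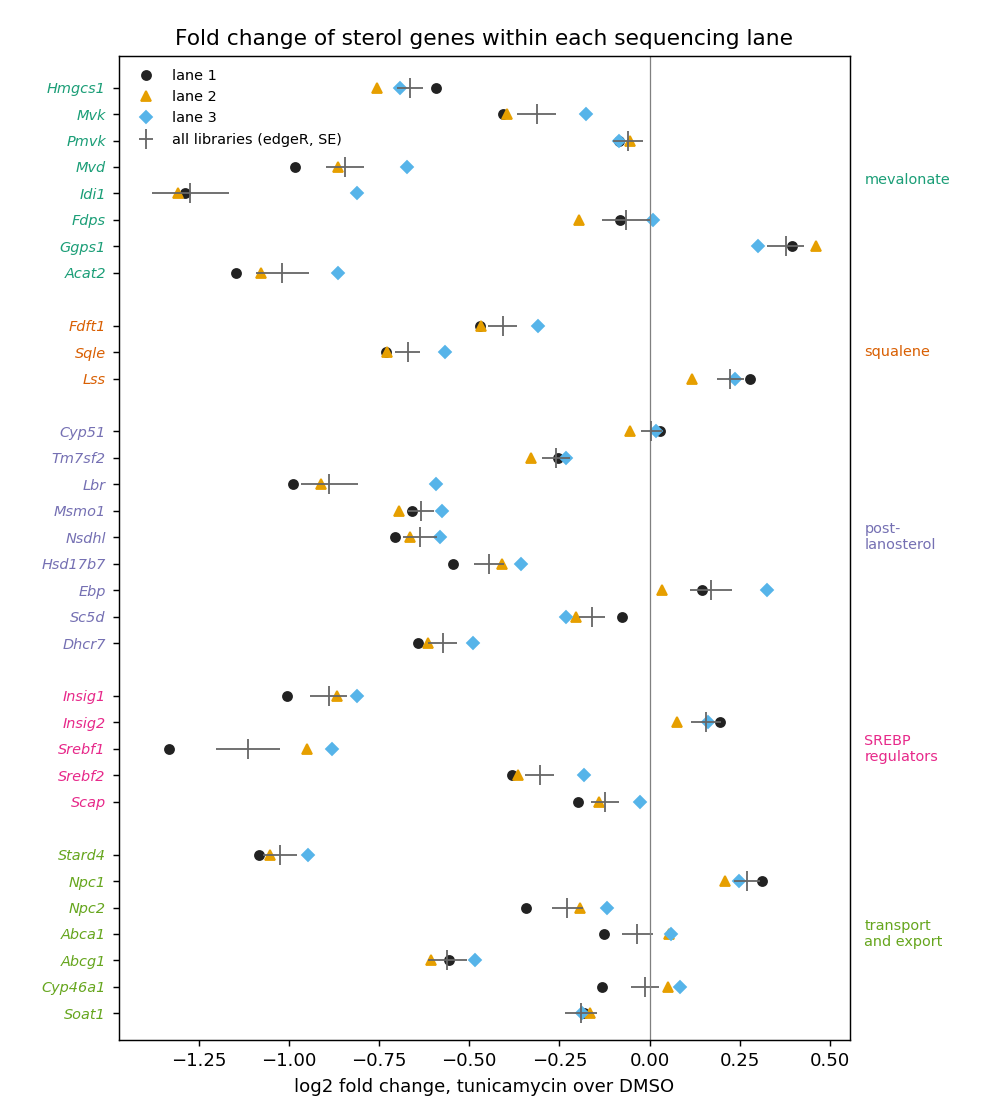
Log2 fold change of each of the 32 genes, tunicamycin over DMSO, within lane 1 (circles), lane 2 (triangles) and lane 3 (diamonds). Lane values are differences of mean log2(CPM + 0.5), with CPM here scaled by the TMM factors. Crosses are the edgeR estimate over all libraries and its SE. The diamonds of lane 3 lie nearest to 0 for most genes that fell, and no called gene changes its side of 0.

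Other genes of the same machinery were read from lists. Their counts stand beside 31.8% higher and 32.5% lower over all genes tested. Of 12 further genes of sterol synthesis and SREBP processing 6 fell and 4 rose, and their median was -0.08 on the log2 scale. Rnf145, an ER ubiquitin ligase of sterol control, was 2.01-fold lower, with 37.5 to 41.2 CPM with tunicamycin and 76.8 to 79.6 CPM with DMSO (edgeR adjusted p = 2.39e-16). The related ligase gene Rnf139 rose by 0.26 ± 0.04, with 26.2% of its exonic bases inside another gene. The proteases that release SREBP moved little: Mbtps1 fell by 0.18 ± 0.04 and Mbtps2 did not pass (log2 fold change -0.06, edgeR adjusted p = 0.0995), and 28.4% of its exonic bases overlap another gene.

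Fatty acid synthesis, the other branch under SREBP, had 10 of 13 genes lower and 1 higher, with a median log2 fold change of -0.31. Over all genes tested 32.5% were lower and 31.8% higher. Scd2, the brain's main stearoyl-CoA desaturase, averaged 1635 ± 47.1 CPM with tunicamycin and 2244 ± 38.1 CPM with DMSO (log2 fold change -0.47 ± 0.03, edgeR adjusted p = 6.43e-12). Scd1 fell by 0.47 ± 0.04 and Acaca, the acetyl-CoA carboxylase, by 0.49 ± 0.04, and 30.4% of the 50-base words of Acaca are shared with other genes. Elovl6, an elongase of fatty acids, rose (0.21 ± 0.03).

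Genes that use mevalonate products leaned the other way in count, with 9 of 15 higher and 2 lower and a median of 0.12. The 11 called of 15 stand beside 64.3% called over all genes tested, 31.8% higher and 32.5% lower. Rabggtb, a subunit of the enzyme that geranylgeranylates Rab proteins, had 129, 135 and 141 CPM (lowest, median, highest) with tunicamycin, against 63.6, 62.7, 63.2 and 62.2 CPM with DMSO. The groups were far apart, and the log2 fold change was 1.09 ± 0.03 (edgeR adjusted p = 3.97e-17). Rce1 and Zmpste24, proteases that trim prenylated proteins, rose by 0.75 ± 0.06 and 0.51 ± 0.04. Under upper-quartile scaling 5 of the 15 genes were higher and 5 lower, so the lean of this list depends on the scaling. Of 7 LXR factors and targets 3 rose and 3 fell. Rxrb, a partner of LXR, rose (0.39 ± 0.04), as did Mylip (0.59 ± 0.06). Nr1h3 also rose (0.91 ± 0.21), from a low mean of 0.515 CPM with DMSO. The phospholipid remodelling enzyme gene Lpcat3 fell (-0.62 ± 0.05), and 10.2% of its exonic bases overlap another gene. The exporter gene Abcg4 (-0.43 ± 0.04) and Rxra (-0.37 ± 0.06) fell too. Of 10 further sterol carriers and esterases 6 rose and 4 fell, and under upper-quartile scaling 3 were higher and 4 lower. Osbp, a carrier of oxysterols and cholesterol between the ER and the Golgi, was 1.46-fold higher (log2 fold change 0.55 ± 0.03), with 165 ± 4.40 CPM with tunicamycin and 112 ± 3.85 CPM with DMSO. Lipa, the lysosomal lipase that frees cholesterol from its esters, rose (0.40 ± 0.05), and the transporter gene Abca2 fell (-0.41 ± 0.03).

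**Figure D5:**
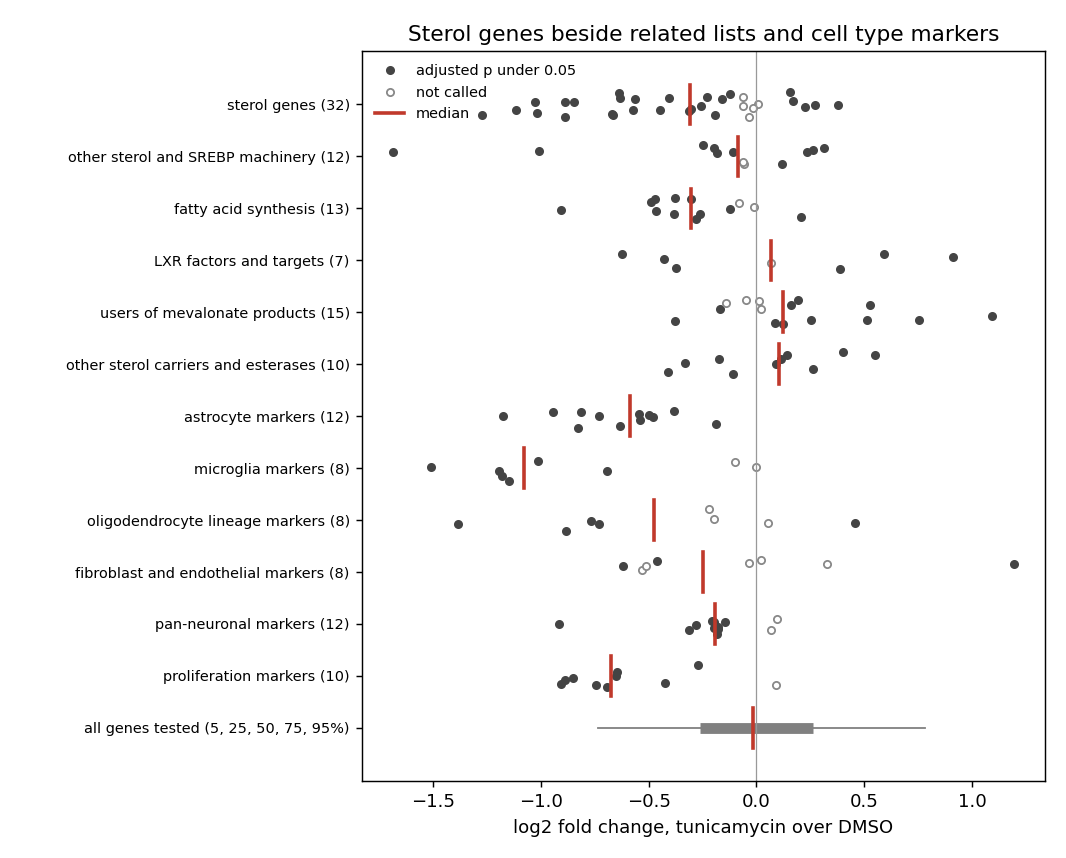
Log2 fold change, tunicamycin over DMSO, of each tested gene of the 32 sterol genes, of related lists and of cell type marker lists; filled points passed edgeR's test at an adjusted p under 0.05, open points did not, and red lines are medians. The bottom row gives the 5th, 25th, 50th, 75th and 95th percentile of all 15660 genes tested; medians were -0.31 for the sterol genes and for fatty acid synthesis, and -0.59 for astrocyte markers.

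Genes of the cell type marker lists changed as well, and their part in the falls of sterol genes was not tested. Over all genes tested 32.5% were lower and 31.8% higher. All 12 tested astrocyte markers of 13 fell (median log2 fold change -0.59), and their summed level was 2518 to 2756 CPM in the tunicamycin libraries and 3665 to 4067 CPM in the DMSO libraries. Slc1a3, an astrocyte glutamate transporter, averaged 492 ± 22.6 CPM with tunicamycin and 867 ± 30.7 CPM with DMSO. The summed level of the 20 synthesis enzymes over the same libraries was 2683 to 2912 CPM with tunicamycin and 3801 to 3968 CPM with DMSO. Hmgcs1 alone held 952 to 1056 CPM of it with tunicamycin and 1543 to 1672 CPM with DMSO. Oligodendrocyte lineage markers summed to 122 to 147 CPM with tunicamycin and 193 to 240.2 CPM with DMSO, with 4 of 8 tested of 10 lower and 1 higher, among them Olig1 (log2 fold change -0.88) and Cnp (-0.73), which fell. Of 8 tested microglia markers of 10, 6 fell, and the list summed to 12.7 to 16.1 CPM with tunicamycin and 18.04 to 22.1 CPM with DMSO, with Aif1 (log2 fold change -0.0015) and Csf1r (-0.10) not passing. Proliferation markers fell in 9 of 10 cases, among them Top2a (-0.75) and Mki67 (-0.69), with sums of 76.8 to 90.1 CPM with tunicamycin and 119 to 147 CPM with DMSO. Pan-neuronal markers fell in 10 of 12 cases, among them Map2 (-0.20) and Stmn2 (-0.28), with a median of -0.19 and sums of 7085 to 7409 CPM with tunicamycin and 8355 to 8843 CPM with DMSO. Fibroblast and endothelial markers, with sums of 88.2 to 151 CPM with tunicamycin and 115 to 202 CPM with DMSO, had 2 of 8 tested lower and 1 higher, and Col1a1 (-0.51) and Col1a2 (0.023), the most abundant by the mean over all 10 libraries, did not pass. Dcn, which was above Col1a2 in the DMSO mean, fell (-0.46, edgeR adjusted p = 0.0134). No marker of these lists was at 0 in every library.

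The authors' deposited tables list 22 of the 32 genes as lower and 5 as higher, with the direction of the edgeR call for all 27, and do not list the other 5. In the authors' deposited table the log2 fold change is -1.28 for Idi1, -1.12 for Srebf1, -1.03 for Stard4 and 0.37 for Ggps1.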

How the data were processed

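RNA of 6 tunicamycin and 4 DMSO libraries was made into TruSeq RNA v2 libraries and sequenced as single ends, per the labels' protocols. The mm10 build, STAR (2.5.2b), Subread (1.5.1), featureCounts and DESeq2 are listed per the submitters' processing notes, with no role or order. Neither the annotation nor the strand setting used in counting is stated. The authors deposited 1 table of raw counts per library, with 48709 Ensembl identifiers, of which 48349 matched GENCODE M21 (GRCm38). The authors also deposited tables of log2 fold changes with adjusted p-values and a normalized signal per library. That deposited signal equalled the counts divided by 1 factor per library for 100% of 95110 values (relative tolerance 0.0001).

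Counts were tested in R 4.3.3 with glmQLFit (robust) and glmQLFTest of edgeR 4.0.16, two-sided, after TMM and filterByExpr, which kept 15660 genes, and Benjamini-Hochberg adjustment with a threshold of 0.05. SE is the log2 fold change divided by the square root of F. Values are means ± SD over n = 6 tunicamycin and n = 4 DMSO libraries unless said otherwise. No library repeated another (chi-square per degree of freedom 2.07 to 9.64). Counts were simulated over 15660 genes, with 50 genes changed at each of 1.25-, 1.5-, 2- and 4-fold. The test recovered 72% of those changed 1.25-fold and 100% of those changed 4-fold, and made 7 false calls. In the data 64.3% of the genes were called, so the simulation does not give the error of those calls or of the scaling.

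The 32 genes, the lists and the tests were chosen with earlier results of these data known. Named list genes are the 3 with the smallest p of each pathway list and the 2 most abundant of each marker list. A gene that this rule names is not reported here. Others (Mbtps1, Mbtps2, Elovl6, Mylip, Nr1h3, Rxra, Dcn, the overlap partners and the promoters of Insig1, Srebf2 and Cyp51) were chosen after their values were seen. The rule for promoters takes genes with TCACNCCAC by p, and the 2 largest rises with an entry. Alternatives were DESeq2's size factors, upper-quartile scaling, DESeq2 1.42.0, no filter, a mean of at least 1 CPM, lane as a term, a replicate block, and leaving out each library.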

Additional observations from a re-analysis of the deposited data

Results flagged for a closer look

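Of 64 groups (32 genes in each treatment), 4 held a library far from the others by the gap to its neighbour over the range of the group, where chance flags about 1 in 20 groups. Idi1 was at 3.77 CPM in tunicamycin replicate 5, with the next library of that group at 2.91 CPM. Abca1 was at 134 CPM in tunicamycin replicate 3, with the next at 122.8 CPM. In DMSO replicate 2, Cyp51 was at 332 CPM, with the next DMSO library at 346 CPM, and Msmo1 was at 244 CPM, with the next at 254 CPM. Without tunicamycin replicate 5 the fall of Idi1 stayed called, and without DMSO replicate 2 that of Msmo1 did.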

How the results depend on the processing

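Under all 18 alternatives, 25 of the 32 genes kept their direction and their side of the threshold. The count of these genes was 22 lower in 17 of the 18 and 27 under upper-quartile scaling, which gave 3 higher, against 5, and a median log2 fold change of -0.42. It also gave 5 higher and 5 lower among users of mevalonate products and 3 higher among further sterol carriers and esterases. Leaving out each library gave 4 to 5 of the 32 genes higher, a median of -0.33 to -0.27, and 0 to 1 pan-neuronal markers higher. That marker count was 1, against 0, with DESeq2's size factors, with no filter, with a mean of at least 1 CPM, and in replicates 1 to 4 without a block. Genes near 0 changed sign, and the cause was not tested: Cyp51 under upper-quartile scaling (-0.11), with the replicate block (-0.0148), in the same 8 libraries without it (-0.0149), without tunicamycin replicate 6 (-0.00412) and without DMSO replicate 2 (-0.013). Abca1 did so without DMSO replicate 2 (0.018), and Cyp46a1 with no filter (0.00700), without tunicamycin replicate 1 (0.0105) and without DMSO replicate 1 (0.018). Over the 10 fits that leave out a library the log2 fold change ran from -0.013 to 0.019 for Cyp51, -0.063 to 0.018 for Abca1 and -0.029 to 0.018 for Cyp46a1.

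Libraries with the same replicate number did not deviate together (correlations of -0.29, 0.028, -0.084 and -0.10 for replicates 1 to 4), and not every library correlated best with its own number. Noise between libraries can hide a shared source, so these correlations cannot decide whether the numbers pair the libraries. With the replicate block 22 of the 32 genes were lower and 5 higher, the median was -0.36, and 4398 of all genes were lower and 4416 higher, against 4758 and 4699 in the same 8 libraries without a block. With 4 and 6 libraries and no stated source of replicates, precision rests on spread that may be technical. The largest SE of the 32 log2 fold changes were those of Idi1 (0.11), Srebf1 (0.09) and Lbr (0.08).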
